A study of Mus with 21 samples.

Results

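Procr and 8 genes of blood coagulation and plasminogen activation were followed in mouse skin wounds on Day 4. The 9 genes, of 18806 in the count files, were taken by symbol: Procr, Thbd, F3, F13a1, Tfpi, Tfpi2, Plau, Plaur and Plat. Procr was chosen from the libraries at pH 8.4, where it was higher with aFGF than with bFGF, and the other 8 genes were chosen for their roles beside it. All 9 passed the filter on low counts in every comparison. The values of the aFGF and bFGF libraries at pH 8.4 are therefore given as a description, and the calls counted there support nothing. Hydrogels against control and the correlations over 21 libraries also include these libraries, and the comparisons at pH 6.4 and 7.4 do not.

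The wounds were full-thickness punch wounds in the dorsal skin of wild-type, female C57BL/6 mice aged 8 weeks. The control group had wounds without a hydrogel scaffold. The other 6 groups received a gelatin methacryloyl (GelMA) hydrogel with the pH set to 6.4, 7.4 or 8.4, loaded with acidic fibroblast growth factor (aFGF, also called FGF1) or basic fibroblast growth factor (bFGF, FGF2), and are named by pH and growth factor, for example 8.4-GelMA/aFGF. Each of the 7 groups had 3 libraries from 3 mice, 21 in all, labelled as biological replicates. No group received a hydrogel without a growth factor, so the hydrogel and the growth factor cannot be told apart in the comparison with the control. The labels do not say whether a library pooled both wounds of a mouse, and p-values measure the spread between these libraries.

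Clotting starts when tissue factor (F3) meets factor VII, and tissue factor pathway inhibitors (Tfpi, Tfpi2) restrain that step. Thrombin bound to thrombomodulin (Thbd) activates protein C, and the endothelial protein C receptor (Procr) presents protein C for this, so that both act as brakes on clotting on the endothelium. Factor XIII (F13a1 encodes its A subunit, made by macrophages and platelets) crosslinks the finished fibrin. The fibrin is later removed by plasmin, which is formed from plasminogen by the urokinase (Plau) and tissue type (Plat) activators, and the urokinase receptor (Plaur) holds urokinase at the cell surface, where it takes part in cell migration into a wound.

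Library totals were 34362558 to 37817833 counts, and each of the 9 genes had at least 592 counts in every library (Tfpi2 had the lowest count), so counting error was small beside the spread between libraries. Keratinocyte markers summed to 3198 to 8216 CPM (counts divided by the library total, scaled between libraries) and fibroblast markers to 32666 to 71602 CPM, so cells of skin were represented in every library. A few libraries stood apart from their group. Control replicate 2 had a neutrophil marker sum of 7851 CPM against 1167 and 710.5 CPM in control replicates 1 and 3. The 7.4-GelMA/aFGF replicate 3 had a cartilage and bone marker sum of 346 CPM, where no other library exceeded 1.71 CPM. The ovary marker Hsd3b1 reached 397 CPM in 8.4-GelMA/bFGF replicate 2, and the liver gene Alb reached 138 CPM in 8.4-GelMA/aFGF replicate 2 against at most 14.1 CPM elsewhere. Whether these transcripts came from the wounds was not tested. Skeletal muscle markers varied from 238 to 14894 CPM between libraries. Results that rest on these libraries are given with and without them, and a lower level in such bulk tissue can mean fewer cells of a type or less RNA per cell, which cannot be told apart.

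Compared per length, as FPKM (fragments scaled by gene length and library size, here the median over 21 libraries), F13a1 was the most abundant of the 9 genes at 162 FPKM and Plaur followed at 124 FPKM. Thbd stood at 54.2, Plat at 45.7, F3 at 33.0, Plau at 28.3 and Procr at 23.2 FPKM. The clotting inhibitors Tfpi2, at 16.3 FPKM, and Tfpi, at 13.6 FPKM, were lowest. The genes also differed in how far they varied. The CPM of Plaur spanned 20.3-fold from the lowest to the highest library, that of Thbd 13.7-fold and that of Procr 6.18-fold, while F3 spanned 3.70-fold, Plau 2.82-fold, Tfpi2 2.77-fold, F13a1 2.63-fold, Tfpi 2.14-fold and Plat 1.84-fold.

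**Figure D1:**
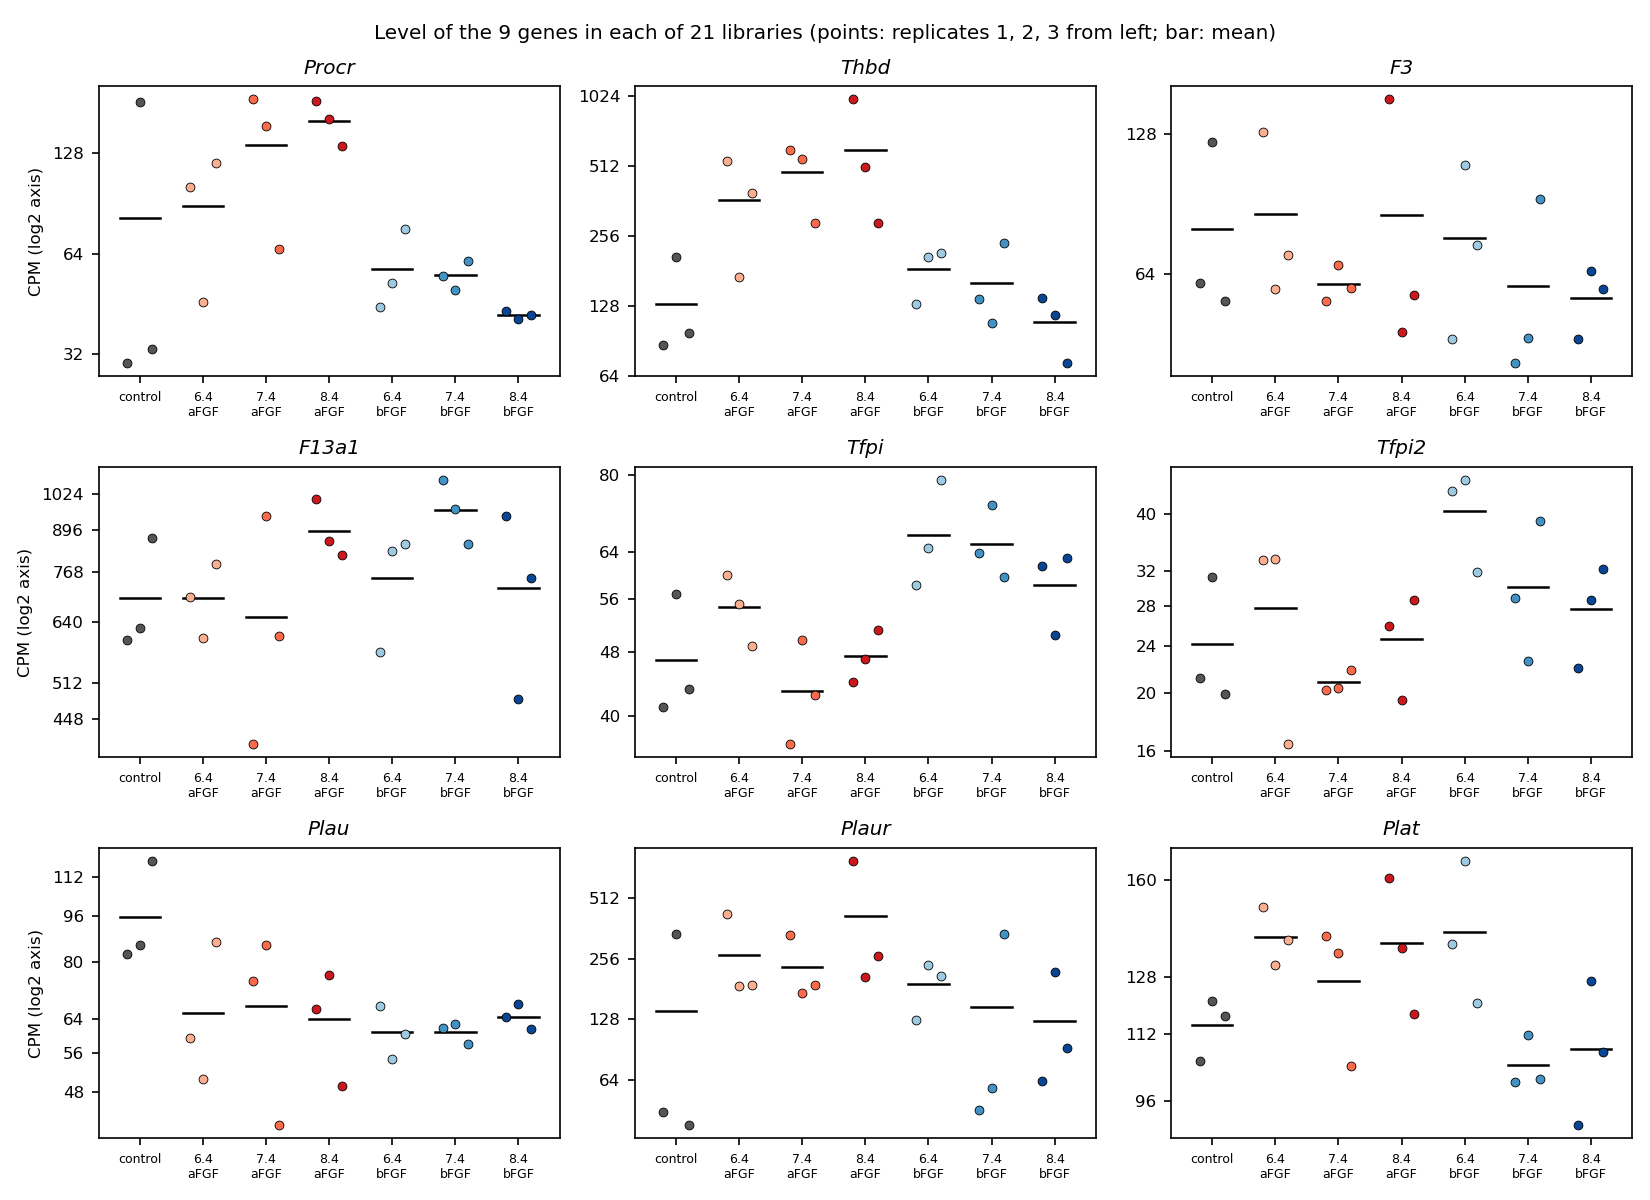
Level of each of the 9 genes in CPM (log2 axis) in each of 21 libraries, with groups on the horizontal axis, 1 point per library and a bar at the group mean. Procr and Thbd are high in most aFGF libraries, Plau is highest in the control libraries, and control replicate 2 lies far above the other control libraries for Procr and Plaur.

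Procr and Thbd, the receptors of the protein C pathway, had higher levels in all 3 aFGF libraries than in all 3 bFGF libraries at pH 7.4, and neither passed the threshold across all genes with edgeR. Procr had 186, 155 and 66.0 CPM in the 7.4-GelMA/aFGF replicates 1, 2 and 3 and 54.8, 49.6 and 60.9 CPM in 7.4-GelMA/bFGF. At pH 6.4 it had 101, 45.9 and 119.8 CPM with aFGF and 44.2, 52.3 and 75.8 CPM with bFGF, where replicate 2 of the aFGF group fell among the bFGF libraries. At pH 8.4, the libraries that chose it, it had 183, 162 and 134 CPM with aFGF and 43.0, 40.8 and 41.8 CPM with bFGF. The groups did not overlap at pH 7.4 and 8.4 and overlapped at pH 6.4.

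By group mean the order for Procr was 8.4-GelMA/aFGF (159.8 CPM ± 24.3, SD, n = 3), 7.4-GelMA/aFGF (135 CPM ± 62.1), 6.4-GelMA/aFGF (89.0 CPM ± 38.5), control (81.8 CPM ± 87.0), 6.4-GelMA/bFGF (57.4 CPM ± 16.4), 7.4-GelMA/bFGF (55.1 CPM ± 5.65) and 8.4-GelMA/bFGF (41.9 CPM ± 1.11). Neighbours in this order overlapped, except the last pair. The 3 hydrogel groups with aFGF thus stood above the 3 with bFGF in mean level, with the control between them on the strength of 1 library. The first and last groups of this order are the pH 8.4 groups that chose Procr, so their order relative to each other follows from that choice. The control libraries had 30.0, 182 and 33.2 CPM.

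Thrombomodulin, the partner of Procr in protein C activation, had the same order between growth factors. Thbd had 602, 551 and 291 CPM with aFGF at pH 7.4 and 137, 108 and 238 CPM with bFGF. At pH 6.4 it had 539, 171 and 392 CPM with aFGF and 129.7, 208 and 217 CPM with bFGF. At pH 8.4 it had 995, 508 and 291 CPM with aFGF and 139, 117 and 72.5 CPM with bFGF, and the control libraries had 86.7, 208 and 97.6 CPM. As for Procr, the growth factor groups were apart at pH 7.4 and 8.4, and at pH 6.4 the aFGF replicate 2 lay within the bFGF values.

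The test across all genes called none of the 9 at pH 6.4 or 7.4 (edgeR quasi-likelihood test, called where the adjusted p was below 0.05 by Benjamini-Hochberg and the change exceeded 0.58 on the log2 scale). It called 0.0% of the 15049 genes tested at pH 7.4 and 0.0% of the 14994 tested at pH 6.4. At an unadjusted p under 0.05 there were 4 of the 9 genes at pH 7.4, among 1960 genes in all, 13.0% of those tested. At pH 6.4 there were 0 of the 9, among 1223, 8.16% of those tested. DESeq2 called 268 genes at pH 7.4, which is 1.49% of those it tested, and Procr and Thbd were among them. At pH 6.4 DESeq2 called 118 genes and none of the 9.

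At pH 7.4 the log2 fold change of Procr, aFGF minus bFGF, was 1.30 (SE 0.358, 95% confidence interval 0.434 to 2.17), with an edgeR adjusted p of 0.351 and a DESeq2 adjusted p of 0.0257. That of Thbd was 1.59 (SE 0.375, 0.686 to 2.50), with an edgeR adjusted p of 0.351 and a DESeq2 adjusted p of 0.00376. At pH 6.4 the values were 0.63 for Procr (SE 0.372, -0.258 to 1.51) and 0.98 for Thbd (SE 0.414, -0.0038 to 1.97), with edgeR adjusted p-values of 0.683 and 0.611. Without 7.4-GelMA/aFGF replicate 3, the library with cartilage and bone transcripts, the values at pH 7.4 were 1.62 for Procr and 1.85 for Thbd (edgeR adjusted p = 0.0968 and 0.138). That library also had the lowest Procr and Thbd of its group. The direction was the same at both pH values, and the intervals of both genes at pH 6.4 included 0.

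The libraries at pH 6.4 and 7.4, which did not choose Procr, were then compared as 1 set, a comparison added after the data had been seen. Here Procr was higher with aFGF by a log2 fold change of 0.97 (SE 0.282, 95% confidence interval 0.345 to 1.59, edgeR adjusted p = 0.146) and Thbd by 1.29 (SE 0.305, 0.618 to 1.97, adjusted p = 0.119). For each gene 5 of the 6 aFGF libraries lay above all 3 bFGF libraries of the same pH. An exact two-sided permutation test of the growth factor within each pH, whose smallest possible p is 0.005, gave p = 0.035 for Procr and p = 0.02 for Thbd, without adjustment for the 9 genes. edgeR called 12 genes in all here, 0.0777% of those tested, and none of the 9. An unadjusted p under 0.05 was found for 4 of the 9, among 2711 genes, 17.5% of those tested. DESeq2 called Procr (adjusted p = 0.0227) and Thbd (adjusted p = 0.00221) among 355 genes, 1.93% of those it tested. Without 7.4-GelMA/aFGF replicate 3 the edgeR adjusted p was 0.0508 for Procr and 0.0520 for Thbd, at log2 fold changes of 1.13 and 1.42. That fit called 138 genes, 0.881% of 15659, and none of the 9. The library left out had the lowest Procr and Thbd of its group, so these values are descriptions.

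**Figure D2:**
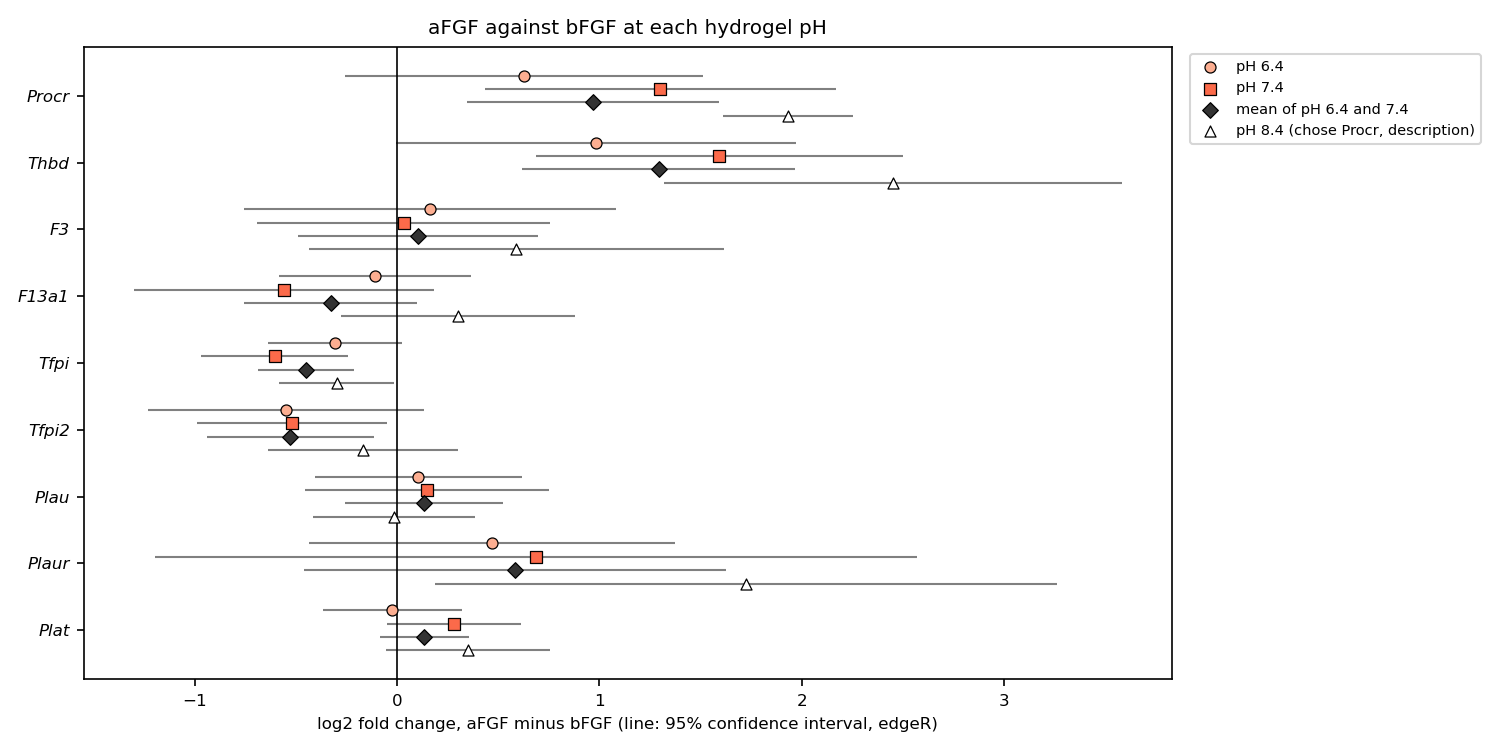
Log2 fold change of each of the 9 genes, aFGF minus bFGF, with its 95% confidence interval from edgeR, at pH 6.4, at pH 7.4, as the mean of both, and at pH 8.4, which chose Procr and is shown as a description. Procr (0.63, 1.30 and 0.97) and Thbd (0.98, 1.59 and 1.29) lie to the right of 0 and Tfpi (-0.31, -0.61 and -0.45) to the left.

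At pH 8.4 the fold changes describe the choice. Procr was chosen as the 1 gene that edgeR called there, 0.00665% of 15041 tested, and the call supports nothing further. It was lost with a replicate block, in the fit over all libraries and in 5 of the 6 fits that left out 1 library. The log2 fold change of Procr was 1.93, with 2.45 for Thbd, 1.72 for Plaur, 0.59 for F3, 0.35 for Plat, 0.30 for F13a1, -0.01 for Plau, -0.17 for Tfpi2 and -0.30 for Tfpi. Groups that did not overlap at pH 8.4 were found for 2 of the 9 genes, Procr and Thbd, and for 26.9% of all 15811 genes. Without 8.4-GelMA/aFGF replicate 2, the library with liver transcripts, the fold change of Procr was 1.90 and that of Thbd 2.53, and without 8.4-GelMA/bFGF replicate 2, the library with ovary transcripts, 1.91 and 2.50, and edgeR called none of the 9 in either fit. Platelet markers summed to 429 to 582 CPM with aFGF and 236 to 354 CPM with bFGF at this pH, and endothelial markers to 741 to 803 and 665 to 1076 CPM. Fitted levels with aFGF were higher for 8 of 8 macrophage markers (median log2 fold change 0.44), 6 of 6 neutrophil markers (0.69) and 6 of 6 platelet markers tested (0.60). They were lower for 8 of 8 endothelial markers (-0.23) and 6 of 6 fibroblast markers (-0.30). The platelet sums did not overlap, and the sums of the macrophage, neutrophil, endothelial and fibroblast lists did. The part of these cells in the values at pH 8.4 was not tested.

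Among the 9 genes 4 had growth factor groups that did not overlap at pH 7.4, Procr and Thbd higher and Tfpi and Tfpi2 lower with aFGF, beside 20.0% of all genes tested. At pH 6.4 none of the 9 did, beside 14.5% of all genes. The median log2 fold change of the 9 genes was 0.15 at pH 7.4, where the median of all genes was -0.01, and 0.11 at pH 6.4, where that of all genes was 0.01.

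The summed levels of endothelial, platelet, macrophage, neutrophil, keratinocyte and fibroblast markers overlapped between the growth factors at pH 7.4, and those of cartilage and bone markers did not, at 0.542 to 346 CPM with aFGF and 0.252 to 0.486 CPM with bFGF. Endothelial markers, the cells on which both receptors are best known, summed to 668 to 790.1 CPM with aFGF and 492 to 1052 CPM with bFGF, with all 8 markers detected. Macrophage markers summed to 3347 to 5904 and 3784 to 4982 CPM, neutrophil markers to 4366 to 6249 and 3989 to 12233 CPM, and platelet markers to 167 to 361 and 283 to 509 CPM. Platelet markers rested on 4 of 7 genes, since Gp9, Gp1ba and Treml1 had a median under 0.5 CPM. Pf4 had the highest level of the 4, with a median of 334 CPM, and Ppbp followed at 17.7 CPM. Keratinocyte markers had a higher fitted level with aFGF in 8 of 8 genes (median log2 fold change 0.47, sums of 4072 to 8216 and 3198 to 5409 CPM) and fibroblast markers a lower one in 6 of 6 (median -0.18, sums of 35723 to 41984 and 39334 to 45408 CPM). No marker gene was called by edgeR in any of the 10 comparisons over all their libraries. The part of cell composition in the growth factor differences was not tested.

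The inhibitors of the tissue factor pathway had the opposite order to the protein C receptors. Tfpi, which inhibits the tissue factor and factor VII complex together with factor X, had 36.9, 49.7 and 42.5 CPM with aFGF at pH 7.4 and 63.9, 73.4 and 59.5 CPM with bFGF. At pH 6.4 it had 59.9, 55.2 and 48.8 CPM with aFGF and 58.2, 64.9 and 78.7 CPM with bFGF. At pH 8.4 it had 44.1, 47.1 and 51.2 CPM with aFGF and 61.5, 50.4 and 63.0 CPM with bFGF, and the control libraries had 41.1, 56.8 and 43.2 CPM. The bFGF group mean was thus above the aFGF group mean at each pH, and the control mean, 47.0 CPM ± 8.54, was close to that of the aFGF groups at pH 7.4 and 8.4.

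At pH 7.4 the log2 fold change of Tfpi was -0.61 (SE 0.15, edgeR adjusted p = 0.351, DESeq2 adjusted p = 0.0576), and at pH 6.4 it was -0.31 (SE 0.139, edgeR adjusted p = 0.626). Over both it was -0.45 (SE 0.106, edgeR adjusted p = 0.119), and 5 of 6 aFGF libraries lay below all 3 bFGF libraries of the same pH (exact permutation test, two-sided, p = 0.01, unadjusted). DESeq2 gave an adjusted p of 0.00921 for the fold change over both, whose size was below the fold threshold. Leaving out any 1 library at pH 7.4 gave values from -0.72 to -0.50.

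Tfpi2, a relative of Tfpi that is deposited in the extracellular matrix and also inhibits plasmin, had 20.2, 20.4 and 21.9 CPM with aFGF and 28.9, 22.6 and 38.8 CPM with bFGF at pH 7.4. At pH 6.4 it had 33.4, 33.6 and 16.4 CPM with aFGF and 43.6, 45.5 and 31.9 CPM with bFGF. The pH 8.4 libraries had 25.9, 19.5 and 28.7 CPM with aFGF and 22.1, 28.6 and 32.3 CPM with bFGF, and the control libraries 21.2, 31.3 and 19.9 CPM. The growth factor groups overlapped at pH 6.4 and 8.4 and lay side by side at pH 7.4. For Tfpi2 it came to -0.52 on the log2 scale at pH 7.4, aFGF minus bFGF, (SE 0.194, edgeR adjusted p = 0.372), -0.55 at pH 6.4 (SE 0.286, adjusted p = 0.673) and -0.53 over both (SE 0.186, adjusted p = 0.195, exact permutation p = 0.025, two-sided and unadjusted). Without 7.4-GelMA/bFGF replicate 3, the library with the highest neutrophil marker sum, the value at pH 7.4 was -0.31.

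Tissue factor itself, the trigger of clotting, did not separate the growth factors in these libraries. F3 had 56.1, 66.8 and 59.9 CPM with aFGF and 41.2, 46.7 and 92.8 CPM with bFGF at pH 7.4, and 129, 59.5 and 70.5 against 46.4, 109.6 and 73.8 CPM at pH 6.4. At pH 8.4 it had 152, 48.0 and 57.6 CPM with aFGF and 46.3, 65.0 and 59.5 CPM with bFGF, and the control libraries had 61.2, 123 and 55.9 CPM. Single libraries stood above 100 CPM in the control, in the aFGF groups at pH 6.4 and 8.4 and in the bFGF group at pH 6.4, and all neighbours in the order of group means overlapped. Over pH 6.4 and 7.4 its log2 fold change was 0.10, and an exact two-sided permutation test gave p = 0.635.

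F13a1, which encodes the fibrin crosslinking subunit, had its highest group mean in 7.4-GelMA/bFGF (965 CPM ± 112, SD, n = 3) and its lowest in 7.4-GelMA/aFGF (653 CPM ± 269.6). Its values there were 1076, 969 and 851 CPM with bFGF and 409, 943 and 607 CPM with aFGF, which overlapped. The other groups had means between 698 and 894 CPM. The log2 fold change at pH 7.4 was -0.56 (SE 0.306, edgeR adjusted p = 0.452), and at pH 8.4 the sign was the other way, with 1004, 862 and 817 CPM with aFGF and 944, 483 and 751 CPM with bFGF. Over 21 libraries F13a1 followed the sums of platelet markers (Pearson r = 0.67, Spearman rho = 0.58, r = 0.58 without the 2 libraries farthest from the median) and macrophage markers (r = 0.58, rho = 0.67, r = 0.47). These correlations are descriptions over 21 libraries in 7 groups, and within groups, after each group mean was taken out, r was 0.65 and 0.69. Keratinocyte markers had r = 0.29 with F13a1 (rho = 0.20, within groups r = 0.64). The platelet sum rested mainly on Pf4, with a median of 334 CPM, and Ppbp followed at 17.7 CPM. Gp9, Gp1ba and Treml1 had medians of 0.216, 0.314 and 0.276 CPM. The relation of F13a1 with this sum is thus mainly a relation with Pf4, and which cells made F13a1 was not tested.

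Of the plasminogen activators, urokinase had its highest group mean in the control wounds. Plau had 82.7, 85.4 and 119 CPM in the control libraries (95.7 CPM ± 20.2, SD, n = 3), and the 6 hydrogel groups had means from 60.8 to 67.3 CPM. The lowest, median and highest of the 18 hydrogel libraries were 42.2, 62.3 and 86.5 CPM, and 16 of them lay below all 3 control libraries. The 2 that did not were 6.4-GelMA/aFGF replicate 3 at 86.5 CPM and 7.4-GelMA/aFGF replicate 2 at 85.6 CPM, which lay just above 2 control libraries.

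Hydrogels minus control, the log2 fold change of Plau was -0.58 (SE 0.171, 95% confidence interval -0.947 to -0.223, edgeR adjusted p = 0.15, DESeq2 adjusted p = 0.0726), so it was not called. An exact two-sided permutation test on log2 CPM, over 1330 arrangements with a smallest possible p of 0.000752, gave a difference of -0.59 and p = 0.00451, unadjusted. Without control replicate 3, the highest, the difference was -0.42 and the exact permutation p was 0.0526. Between the growth factors Plau had log2 fold changes of 0.11 at pH 6.4, 0.15 at pH 7.4 and 0.13 over both, with an exact two-sided permutation p of 0.675. The Plau level also ran against the neutrophil marker sum over 21 libraries (r = -0.66, rho = -0.58, r = -0.37 without the 2 farthest libraries, within groups r = -0.47). With the macrophage marker sum Plau had r = 0.45 (rho = 0.51, r = 0.52 without the 2 farthest libraries, within groups r = 0.63). Neutrophil markers summed to 710.5 to 7851 CPM in control and 2876 to 12233 CPM in hydrogel libraries, and their part in the lower Plau level was not tested.

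Plat, the tissue type activator, varied least of the 9 genes. It had 105, 121 and 117 CPM in control libraries, and its group means ran from 104 CPM in 7.4-GelMA/bFGF to 142 CPM in 6.4-GelMA/bFGF. Between these 2 groups, the values were 100.2, 112 and 101 CPM at pH 7.4 and 138, 167 and 120.4 CPM at pH 6.4, without overlap. Its log2 fold change, pH 6.4 minus 7.4 with bFGF, was 0.47 (SE 0.143, 95% confidence interval 0.122 to 0.812, edgeR adjusted p = 0.542, DESeq2 adjusted p = 0.207). edgeR called 0.0% of the 14976 genes tested in this comparison, 1332 had an unadjusted p under 0.05, and DESeq2 called 113 genes and none of the 9. Groups that did not overlap were found for 15.1% of all genes here and for 2 of the 9, Plat and, with lower values at pH 6.4 (573, 831 and 851 CPM), F13a1, whose highest value there was almost equal to the lowest at pH 7.4. Keratinocyte marker sums with bFGF did not overlap either, at 5413 to 6321 CPM at pH 6.4 and 3198 to 5409 CPM at pH 7.4. Fitted levels at pH 6.4 were higher for 8 of 8 keratinocyte (median log2 fold change 0.28) and 8 of 8 endothelial markers (0.34). They were lower for 7 of 8 macrophage (-0.22), 6 of 6 neutrophil (-0.25) and 6 of 6 skeletal muscle markers (-1.95). The part of these cells in the differences of this comparison was not tested. With aFGF, Plat had 150.3, 131 and 139 CPM at pH 6.4, 141, 135 and 104 CPM at pH 7.4 and 161, 137 and 117 CPM at pH 8.4.

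The urokinase receptor had the widest range over the 21 libraries of the 9 genes. Plaur had 44.7, 340.2 and 38.3 CPM in the control libraries. With aFGF it had 426, 187 and 189.5 CPM at pH 6.4, 336, 174 and 189 CPM at pH 7.4 and 778, 206 and 264 CPM at pH 8.4. With bFGF it had 127, 239 and 209 CPM at pH 6.4, 45.6, 58.3 and 338 CPM at pH 7.4 and 63.7, 220.3 and 92.4 CPM at pH 8.4. The 9 aFGF libraries all lay above 170 CPM, and 5 other libraries did too, 1 control, 2 of 6.4-GelMA/bFGF and 1 each of the bFGF groups at pH 7.4 and 8.4.

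**Figure D3:**
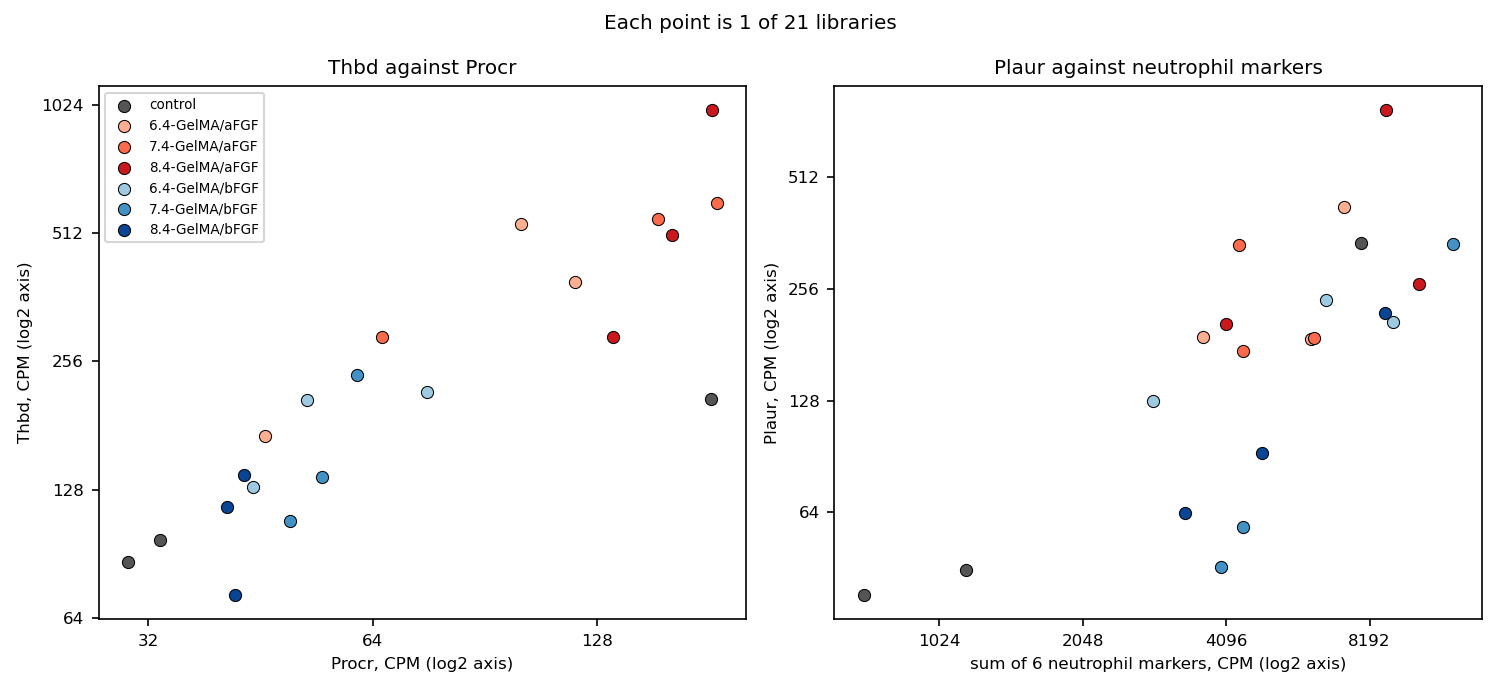
Left, Thbd against Procr, and right, Plaur against the sum of 6 neutrophil markers, both in CPM on log2 axes, with 1 point per library and colours for the 7 groups. Thbd is higher where Procr is higher (r = 0.87) apart from control replicate 2, at 182 CPM of Procr and 208 CPM of Thbd, and Plaur is higher where the neutrophil markers are (r = 0.76).

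For Plaur the log2 fold change, aFGF minus bFGF, was 0.47 at pH 6.4 (SE 0.379, edgeR adjusted p = 0.753), 0.69 at pH 7.4 (SE 0.779, adjusted p = 0.696) and 0.59 over both (SE 0.472, adjusted p = 0.565, exact permutation p = 0.19). The value at pH 7.4 rested on 7.4-GelMA/bFGF replicate 3. Without that library it was 2.15 (adjusted p = 0.25), and the value over both pH values was 1.30 (adjusted p = 0.108). Leaving it out also made the difference of Plaur between pH 6.4 and 7.4 with bFGF 1.90 (adjusted p = 0.0415), among 278 genes called in that fit, 1.83% of 15199, against 0.42 (adjusted p = 0.884) with it. This library has the highest Plaur of its group and was singled out because its values stood apart. The Plaur values and p-values without it are therefore descriptions. At pH 6.4 the value was -0.05 without 6.4-GelMA/aFGF replicate 1. That library and 7.4-GelMA/bFGF replicate 3 had 426 and 338 CPM of Plaur, and the latter had the highest neutrophil marker sum of all libraries, 12233 CPM.

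Over 21 libraries Plaur followed the neutrophil marker sum (r = 0.76, rho = 0.76, r = 0.63 without the 2 farthest libraries, within groups r = 0.85), as did F3 (r = 0.47, rho = 0.63, r = 0.63, within groups r = 0.70). Procr followed it less closely (r = 0.44, rho = 0.38, r = 0.14 without the 2 farthest libraries, within groups r = 0.54). The macrophage marker sum had r = 0.50 with Procr (rho = 0.47, r = 0.40, within groups r = 0.32) and r = 0.45 with Thbd (rho = 0.41, r = 0.35, within groups r = 0.33). The fibroblast marker sum had r = -0.43 with Procr (rho = -0.42) and r = -0.34 with Thbd (rho = -0.38). The endothelial marker sum had r = -0.25 with Procr (rho = -0.22) and r = -0.07 with Thbd (rho = -0.05). It had r = 0.69 with Tfpi2 (rho = 0.64, r = 0.63 without the 2 farthest libraries, within groups r = 0.78), r = 0.05 with Tfpi (rho = 0.06) and r = 0.20 with Plat (rho = 0.14). Tfpi2 also had r = -0.66 with macrophage markers (rho = -0.66), r = 0.60 with fibroblast markers (rho = 0.54) and r = -0.62 with skeletal muscle markers (rho = -0.59). These values describe bulk libraries that share tissue composition and scaling, and do not show which cells made the transcripts.

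Against the control, the values of Procr and Plaur rested on 1 control library. Over all 21 libraries edgeR called 1 gene, 0.00632% of 15811, and none of the 9. An unadjusted edgeR p under 0.05 was found for 2640 genes, 16.7% of those tested, and for 2 of the 9. Of these 2, Thbd was higher and Plau lower in the hydrogels. DESeq2 called 170 genes and none of the 9. Groups that did not overlap were found for 0.607% of all genes and for none of the 9. The log2 fold change, hydrogels minus control, was -0.04 for Procr (SE 0.411, adjusted p = 0.973), 1.02 for Thbd (SE 0.409, adjusted p = 0.234) and 0.59 for Plaur (SE 0.68, adjusted p = 0.687). It was 0.24 for Tfpi, 0.21 for Tfpi2, 0.15 for F13a1, 0.14 for Plat and -0.19 for F3, with adjusted p-values from 0.325 to 0.807. The median over the 9 genes was 0.15 and that over all genes -0.02.

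Control replicate 2 carried 5.77 times the Procr of the mean of control replicates 1 and 3, 8.20 times the Plaur, 2.26 times the Thbd and 2.11 times the F3. Its Plau (0.847 times), F13a1 (0.853 times), Plat (1.09 times), Tfpi (1.35 times) and Tfpi2 (1.52 times) were nearer to the other controls. Against control replicates 1 and 3, all 18 hydrogel libraries were higher for Procr and for Plaur, 17 for Thbd, 16 for Tfpi and none for Plau.

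Without control replicate 2 edgeR called 1189 genes, 7.4% of 16069, and 2 of the 9. These were Procr at a log2 fold change of 1.33 (SE 0.346, adjusted p = 0.0262) and Plau at -0.66 (SE 0.204, adjusted p = 0.0483). Plaur at 2.36 (SE 0.778, adjusted p = 0.0616), Thbd at 1.52 (SE 0.484, adjusted p = 0.0539) and Tfpi at 0.39 (adjusted p = 0.0592) missed the threshold. F3 was at 0.26 (adjusted p = 0.718), on the other side of 0 from its value over all libraries. The exact permutation test gave p = 0.0474 for Procr and p = 0.00526 for Plaur without this library, and p = 0.459 and p = 0.130 with it (two-sided, unadjusted). Leaving it out keeps only 2 control libraries, and 0.00526 is the smallest p that the test can then give. Control replicate 2 has the highest Procr and Plaur of the controls and was singled out because its values stood apart. Both p-values without it are therefore descriptions. Neutrophil markers S100a8, S100a9, Csf3r and Cxcr2 were called in the same fit, with Lum and Cyp2e1 among 65 marker genes tested, and their part in the values of Procr and Plaur was not tested. No label sets it apart from the other controls.

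**Figure D4:**
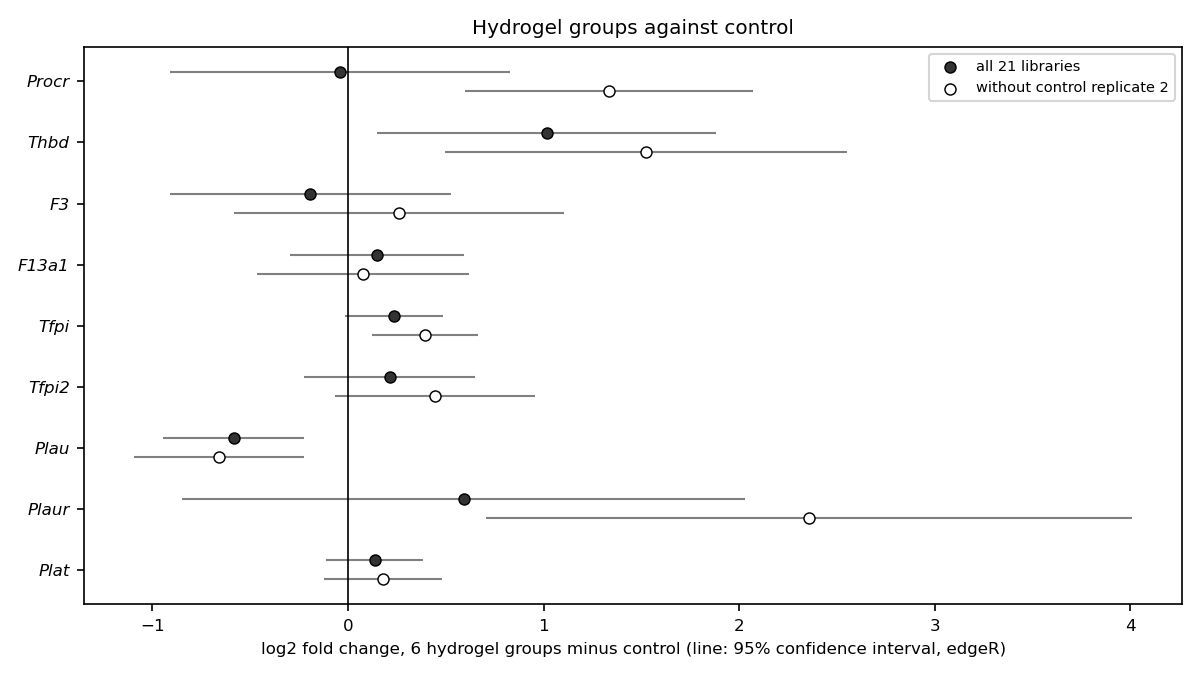
Log2 fold change of each of the 9 genes, 6 hydrogel groups minus control, with its 95% confidence interval from edgeR, over all 21 libraries (filled) and without control replicate 2 (open). Procr moves from -0.04 to 1.33 and Plaur from 0.59 to 2.36, and Plau is at -0.58 and -0.66.

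Between pH values within 1 growth factor, edgeR called none of the 9 genes over all libraries of a comparison. With aFGF, pH 6.4 minus 7.4, the log2 fold change was -0.60 for Procr, -0.39 for Thbd, 0.50 for F3, 0.41 for Tfpi2 and 0.34 for Tfpi, and edgeR called 0.0% of the 15019 genes tested, where 750 had an unadjusted p under 0.05, none of them among the 9, and DESeq2 called 20 genes. Between aFGF and bFGF, the difference in this pH change was -0.69 for Procr (SE 0.56, 95% confidence interval -1.92 to 0.552, edgeR adjusted p = 0.853) and -0.62 for Thbd (SE 0.601, adjusted p = 0.866), with 0.0% of 15449 genes called, 941 genes and none of the 9 at an unadjusted p under 0.05, and 28 genes called by DESeq2. The larger growth factor difference at pH 7.4 than at pH 6.4 was thus within the error for both receptors.

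The libraries at pH 8.4 share the values that chose Procr, and its difference from pH 7.4 is a description, 0.23 with aFGF and -0.37 with bFGF. Thbd differed by 0.30 and -0.53 and Plaur by 0.82 with aFGF, where 1 library of 778 CPM stood far above its group. edgeR called 0.0% of 14968 genes with aFGF and 0.0% of 15092 with bFGF, with 450 and 864 genes at an unadjusted p under 0.05 and 13 and 28 genes called by DESeq2.

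Procr and Thbd, partners in protein C activation, had the closest relation among the 9 genes over 21 libraries (r = 0.87, rho = 0.90, r = 0.83 without the 2 farthest libraries, within groups r = 0.74). Each also followed Plaur, with r = 0.71 for Procr (rho = 0.69, r = 0.64, within groups r = 0.62) and r = 0.77 for Thbd (rho = 0.70, r = 0.69, within groups r = 0.69). F3 followed Plaur (r = 0.73, rho = 0.71, r = 0.60, within groups r = 0.85). Tfpi followed Tfpi2 over all libraries (r = 0.57, rho = 0.66, r = 0.54) and hardly within groups (r = 0.13). Part of the relation of Procr with Thbd is the growth factor difference that both share, which the value within groups leaves out.

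Among 13885 genes with a mean of at least 1 CPM, the 5 with the pattern most like Procr by Pearson r over 21 libraries were Sertad1 (r = 0.963, rho = 0.951, within groups r = 0.937), Ugdh (r = 0.949), Gch1 (r = 0.939), Isy1 (r = 0.938) and Cdc42se1 (r = 0.938). Sertad1 encodes a transcriptional coregulator that binds CDK4, Ugdh the enzyme that makes UDP-glucuronic acid for hyaluronan and other glycosaminoglycans, and Gch1 the first enzyme of tetrahydrobiopterin synthesis. Sertad1 ranged from 19.2 to 75.6 CPM and Ugdh from 103 to 719.9 CPM. Reads of Cdc42se1 may be shared with Mllt11, which overlaps it in the annotation. Thbd came at rank 97, Serpinb2 at 154, Plaur at 1000, Plat at 2838 and F3 at 3435. Plau came at rank 6114, F13a1 at 6547, Tfpi2 at 9120 and Tfpi at 9373. Coagulation genes are few among the 13885, so most neighbours of almost any gene would lie outside them, and no conclusion is drawn. The 21 libraries of this ranking include those that chose Procr, so the ranks are a description.

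The remaining genes of the pathway were taken from lists of 16 coagulation factors, 9 protein C pathway genes and clotting inhibitors, 13 plasminogen system genes and 4 thrombin and protease-activated receptors. Of these 42 genes 37 passed the filter over 21 libraries, and edgeR called none of them in any comparison over all libraries. In hydrogels against control, 2 of 13 coagulation factors tested had an unadjusted p under 0.05 with a higher and 1 with a lower level, 1 of 8 protein C pathway genes and inhibitors was lower, 1 of 12 plasminogen genes was higher and 1 of 4 receptors was lower. In all these were 6 of 37 pathway genes, 16.2%, beside 16.7% of all genes tested. At pH 7.4, aFGF against bFGF, 2 of 10 coagulation factors and 2 of 9 plasminogen genes were higher at that level, with none of 3 inhibitors and none of 4 receptors, so 4 of 26 in all, 15.4%, beside 13.0% of all genes. At pH 6.4 the 1 such gene of 28, beside 8.16% of all genes, was A2m, among 4 inhibitors tested, at 0.442 CPM with aFGF and 2.69 CPM with bFGF (log2 fold change -2.61, edgeR adjusted p = 0.587, DESeq2 adjusted p = 0.0164). As a description, aFGF against bFGF at pH 8.4, which chose Procr, had 11 of 28 such genes, 39.3%, beside 21.1% of all genes. For pH 8.4 against 7.4 there were 4 of 31 with aFGF (12.9%, beside 3.01%) and 2 of 25 with bFGF (8.0%, beside 5.72%). Without 8.4-GelMA/aFGF replicate 2, the library with liver transcripts, the pathway genes at that level with aFGF were F2rl2 and Kng1. Both were lower at pH 8.4, with log2 fold changes of -1.20 and -2.17, so the share with aFGF depended on that library. For pH 6.4 against 7.4 there were 0 of 28 with aFGF (beside 4.99%) and 3 of 25 with bFGF (12.0%, beside 8.89%).

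S100a10, a subunit of the annexin A2 complex that binds plasminogen and its tissue activator at the cell surface, had 407, 334 and 345 CPM with aFGF and 233, 223 and 228 CPM with bFGF at pH 7.4. At pH 6.4 it had 345, 344 and 392 CPM with aFGF and 238, 345 and 327 CPM with bFGF, and the control libraries had 325, 321 and 368 CPM. The groups were apart at pH 7.4 and the bFGF libraries there lay below all control libraries. The log2 fold change at pH 7.4 was 0.67 (edgeR adjusted p = 0.351, DESeq2 adjusted p = 6.57e-05), and over pH 6.4 and 7.4 it was 0.46 (edgeR adjusted p = 0.113).

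Serpinb2, plasminogen activator inhibitor 2, which inhibits urokinase, had 1440.0, 1252 and 990.1 CPM with aFGF and 295, 452 and 894 CPM with bFGF at pH 7.4, without overlap (log2 fold change 1.18, edgeR adjusted p = 0.361, DESeq2 adjusted p = 0.0692). At pH 6.4 it had 1861, 387 and 1161 CPM with aFGF and 254, 1175 and 1543 CPM with bFGF, which overlapped. The control libraries had 136, 2096 and 71.3 CPM. Over 21 libraries it followed Procr with r = 0.85 (rho = 0.90, r = 0.85 without the 2 farthest libraries, within groups r = 0.84), closer than any of the 9 genes but Thbd, and by rho as close as Thbd.

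Procr ran against Mrc2, a collagen receptor that also binds urokinase and its receptor, with r = -0.70 over 21 libraries (rho = -0.67, r = -0.62 without the 2 farthest libraries, within groups r = -0.61).

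**Figure D5:**
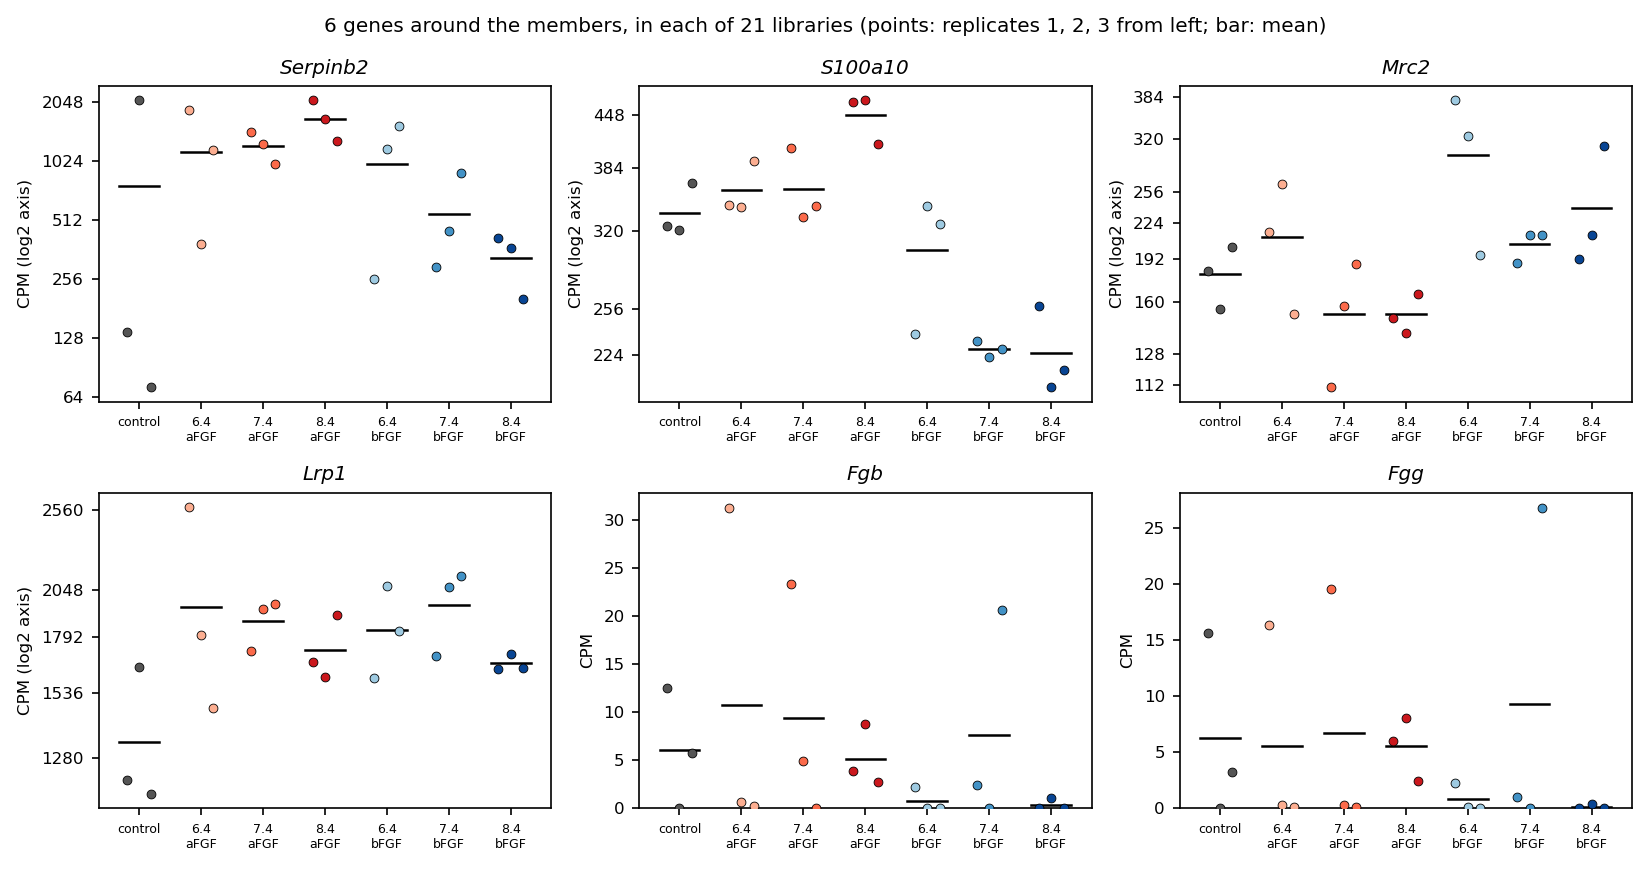
CPM of 6 genes of the coagulation and plasminogen lists in each of 21 libraries, by group, with 1 point per library and a bar at the mean. The upper row and Lrp1 have log2 axes, and Fgb and Fgg linear axes from 0. Control replicate 2 stands at 2096 CPM for Serpinb2, and Fgb and Fgg are high in single libraries of several groups.

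Against the control, Lrp1, the receptor that clears complexes of activators with their inhibitors, had 1205, 1650.1 and 1158 CPM in control and 1469.9 to 2580.0 CPM in the hydrogel libraries (log2 fold change 0.45, edgeR adjusted p = 0.17). Kng2, a kininogen, had 1.23 CPM in control and 5.36 CPM in hydrogel libraries on average (log2 fold change 2.09, edgeR adjusted p = 0.148, DESeq2 adjusted p = 0.00834). Without control replicate 2 edgeR called, among others, Serpinb2 (3.06, adjusted p = 0.0167), Kng2 (2.63, adjusted p = 0.0364) and Lrp1 (0.63, adjusted p = 0.0230) among the 7.4% of genes called in that fit. All 18 hydrogel libraries lay above control replicates 1 and 3 for each of these 3 genes.

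Between pH 6.4 and 7.4 with bFGF, F2rl1, the receptor cleaved by trypsin-like proteases and by the tissue factor and factor VII complex, was at 24.9 CPM at pH 6.4 and 14.9 CPM at pH 7.4 (log2 fold change 0.76, edgeR adjusted p = 0.542, DESeq2 adjusted p = 0.0447). Gas6, a relative of protein S that binds receptor kinases of the TAM family, was at 304 CPM at pH 6.4 and 496 CPM at pH 7.4 (log2 fold change -0.69, edgeR adjusted p = 0.542, DESeq2 adjusted p = 0.0982), and its reads may be shared with Tmem255b, which overlaps it in the annotation. None of the 9 genes overlaps another gene of the files. As a description, pH 8.4 had 1688 CPM of Serpinb2 with aFGF and 328 CPM with bFGF and 448 and 226 CPM of S100a10.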

How the data were processed

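RNA was measured by sequencing in 21 wound libraries, 3 in each of 7 groups, grouped by the labels. Unnormalized counts of reads per gene were deposited by the authors for each library, with FPKM values, which equal the count divided by a fixed gene length and the library total. The submitters' processing notes name genome build GRCm39, and the aligner and counting tool are not given in the sources used here. Libraries were made with a stranded kit, and the strand setting of the counting is not given either.

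Counts were fitted with edgeR 4.0.16 in R 4.3.3 (TMM scaling, filter by group, quasi-likelihood test, Benjamini-Hochberg adjustment over all genes tested), on the libraries compared, or on all 21 for hydrogels against control. Totals were 34362558 to 37817833 counts, and a count of 0 allows a level of up to 3 counts. Intervals are 95%. The scripts were tested on simulated data. DESeq2 1.42.0, limma 3.58.1 on log2(FPKM + 1), other scaling and filters, no fold threshold, a replicate block, fits over all libraries and leaving out each library were alternatives. Single genes were also compared by exact two-sided permutation over libraries.

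The 9 genes, the pathway and marker lists and the tests were chosen with earlier results of these data known. Named genes were all 9, the pathway genes that passed a test in any setting shown or were high in 1 library, and the 5 genes most like Procr, and other pathway genes in the text (among them Gas6, Mrc2, Fgb, Fgg and Proc) were chosen after their values were seen. Of 18806 symbols, 18662 matched a RefSeq table of assembly GRCm38.p6, used for names and overlaps only, and no sequence is shown. 1 further gene of the plasminogen list is counted in the list totals and not reported here.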

Additional observations from a re-analysis of the deposited data

How the results depend on the processing

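Of 79 counts of called genes among the 9 in alternatives that kept all libraries, 74 stayed as reported. DESeq2 called 2 of the 9 (Procr and Thbd) at pH 7.4, 2 at pH 8.4 and 2 over pH 6.4 and 7.4. At pH 8.4, where edgeR called 1 of the 9, the fit with a replicate block and the fit over all libraries both called 0, with log2 fold changes of Procr of 1.92 and 1.93. The values at pH 8.4 chose Procr, so these counts are a description. Procr in hydrogels against control, at -0.04, turned to 0.40 with limma on log2(FPKM + 1) and to 0.0624 with the replicate block. The cause of these shifts was not tested. Same-numbered libraries did not deviate together (mean r = -0.0163 over 63 pairs, against 0.00697 over 126 pairs of different number), so the replicate numbers were not taken as pairs.

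Leaving out 1 library moved the counts to 0 to 2 in hydrogels against control (2 without control replicate 2), 0 to 2 at pH 8.4 (2 without 8.4-GelMA/aFGF replicate 3, 1 with all libraries and 0 without any 1 of the other 5) and 0 to 1 between pH 6.4 and 7.4 with bFGF (1 without 7.4-GelMA/bFGF replicate 3). In hydrogels against control the log2 CPM differences ranged from -0.016 to 1.28 for Procr, -0.39 to 0.18 for F3, -0.68 to -0.42 for Plau and 0.57 to 2.14 for Plaur. The fitted log2 fold changes ranged from -0.44 to 1.33 for Procr, with 0.01 without 6.4-GelMA/aFGF replicate 2 and 0.02 without 7.4-GelMA/aFGF replicate 3, and from -0.40 to 0.26 for F3. Over pH 6.4 and 7.4 they ranged from -0.12 to 0.31 for F3 (-0.03 without 6.4-GelMA/bFGF replicate 1) and from -0.0026 to 0.25 for Plau, and at pH 6.4 from -0.0471 to 0.66 for Plaur. Of 387 fold changes recomputed without 1 library, 372 kept their direction and side of the threshold. With 3 libraries a group, an exact test of 2 groups cannot go below p = 0.1.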

Other observations

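The fibrinogen genes, which the liver makes, were present in single wound libraries of several groups. Fgb had 31.3 CPM in 6.4-GelMA/aFGF replicate 1, 23.4 CPM in 7.4-GelMA/aFGF replicate 1, 20.6 CPM in 7.4-GelMA/bFGF replicate 3 and 12.5 CPM in control replicate 1, and 0 counts in 5 of 21 libraries, which allows up to 3 counts in each. Fgg had 16.3, 19.5, 26.8 and 15.6 CPM in the same 4 libraries. Over 21 libraries Fgb and Fgg followed each other (r = 0.94, rho = 0.94, r = 0.94 without the 2 farthest libraries, within groups r = 0.94), as did Fgb and Proc, the gene of protein C itself (r = 0.84, rho = 0.90), which was at most 1.5 CPM, in control replicate 1. Fga, the third fibrinogen chain, was at 0.913 CPM or less in all libraries but 8.4-GelMA/aFGF replicate 2, where it had 8.94 CPM (r with Fgb 0.52).

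That library held the highest level of other clotting genes made by the liver, with 5.19 CPM of Kng1, 4.94 CPM of Serpinc1 (antithrombin), 4.5 CPM of Plg (plasminogen), 4.28 CPM of F2 (prothrombin), 1.74 CPM of F12, 1.43 CPM of Proz, 1.35 CPM of Serpinf2 and 0.993 CPM of Cpb2, beside 138 CPM of Alb. Whether the transcripts of this library and of the library with ovary transcripts came from the wounds was not tested. Serpina5, the protein C inhibitor, had 32.4 CPM in 8.4-GelMA/bFGF replicate 2, the library with ovary transcripts, and at most 0.11 CPM in any other. F11 had at most 1 count in any library.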
